A study of Saccharomyces cerevisiae with 2 samples.

Results

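The genes of the proteasome were followed in 1 mock-treated culture of budding yeast, Saccharomyces cerevisiae, and 1 culture given the mating pheromone alpha factor. They were chosen by name: every S. cerevisiae gene whose annotated symbol is RPN or PRE followed by a number, RPT1 to RPT6, PUP1 to PUP3, SCL1 or UMP1. This gave 35 of 5449 genes measured, each read by 1 probe set that is not marked as matching several transcripts, and all 35 were above the background level in both arrays. Of the 35, 14 encode the core particle, 18 encode subunits of the regulatory particle and 3 (RPN4, RPN14 and UMP1) carry the name pattern without encoding a subunit of the finished complex. The lid subunit gene SEM1 falls outside the name pattern and is described separately, so that counts for the regulatory particle leave it out unless stated.

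Both cultures were of strain R276, a BY4741-derived S288c strain of mating type a with the genotype ura3Δ0 leu2Δ0 his3Δ1 met15Δ0 bar1Δ::KanMX. Both conditions thus lack BAR1, which encodes a secreted protease that breaks down the pheromone. The treated culture was grown in rich medium and held with 50 ng/ml alpha factor for 3 hours, after which most cells carried mating projections. The handling of the mock culture is not described in what was used here, and the free-text description of that sample repeats the one of the treated sample, so the groups rest on titles and source names. Total RNA of each culture went on 1 Affymetrix Yeast 2.0 array. Each condition has 1 array, so that no value below has a replicate error or a test, and precision is limited by this number of arrays. In bulk RNA, fewer cells expressing a gene and less RNA per cell cannot be told apart.

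The proteasome is the large protease that degrades proteins tagged with ubiquitin. Its barrel-shaped core particle is built of outer alpha rings and inner beta rings, with the proteolytic sites on certain beta subunits, and the regulatory particle that caps it has a base, whose ATPases unfold the substrate, and a lid, which removes the ubiquitin chain. In yeast most subunit genes share a promoter element bound by Rpn4, a short-lived transcription factor that the proteasome itself degrades. The complex is needed in dividing cells to remove cyclins and cyclin-dependent kinase inhibitors.

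The 2 arrays were checked before the proteasome genes were read. Of 6 a-cell marker genes all were above background in both arrays, with mock levels from 9.44 to 13.97 (log2), and all 6 were higher in the array labelled alpha factor. The largest of these differences was that of ASG7, an a-specific gene known to be induced by pheromone, at 9.44 in mock and 14.14 in treated cells. Of 4 alpha-cell markers, MF(ALPHA)1, the major alpha-factor gene, was at 5.85 in mock and 5.93 in treated cells, against background levels of 5.50 and 5.49. The other 3 were above background in both arrays, the mock array included, and were higher in the treated array. MF(ALPHA)2 was at 6.36 in mock and 8.64 in treated cells, or 4.84-fold higher. STE3 (7.74 and 9.49) was 3.38-fold and SAG1 (9.53 and 9.91) 1.30-fold higher. The part of these 3 genes in the proteasome results was not tested. The deleted BAR1, URA3, LEU2 and MET17 (the current name of MET15) were below background in both arrays, while HIS3, of which his3Δ1 removes only part, was at 11.80 and 12.21. The array levels ran up to 15.14 (mock) and 15.19 (alpha factor). The 27 probe sets for spiked-in hybridisation controls (bacterial bio and phage cre transcripts, which are added to the hybridisation mix and not made by yeast) were all brighter in the alpha-factor array, with a median log2 difference of 0.13 and a range from 0.01 to 0.34. For 7 yeast control transcripts read by 3 probe sets each, the log2 differences of the 3 probe sets had SDs from 0.024 to 0.44, with a median of 0.077; these describe probe sets within 1 pair of arrays and not the spread between cultures.

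Transcripts of the proteasome were at nearly the same level in the deposited values of pheromone-treated and mock cells. The sorted values of the 2 arrays differed by at most 0.092. If a scaling made them so alike, a change in total mRNA would not show. None of the 35 genes differed by 2-fold, or even by 1.5-fold, in either direction. The largest difference was that of PRE7, a beta-ring subunit gene, which was 1.30-fold higher with alpha factor, and the lowest were RPN1, which encodes the largest base subunit, at 0.872 of its mock level, and RPN4 at 0.873. The median log2 difference of all 35 (alpha factor minus mock, as for every difference below) was 0.065, with an SD across genes of 0.13. Among the 5337 S. cerevisiae genes above background the 2-fold rule took 5.51% as higher and 3.78% as lower. By the 1.5-fold rule, 12.1% were higher and 10.7% lower. The median over all these genes was -0.032, with an SD of 0.71. Background here is the 95th percentile of the probe sets for the fission yeast S. pombe, whose transcripts the cultures do not make.

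**Figure D1:**
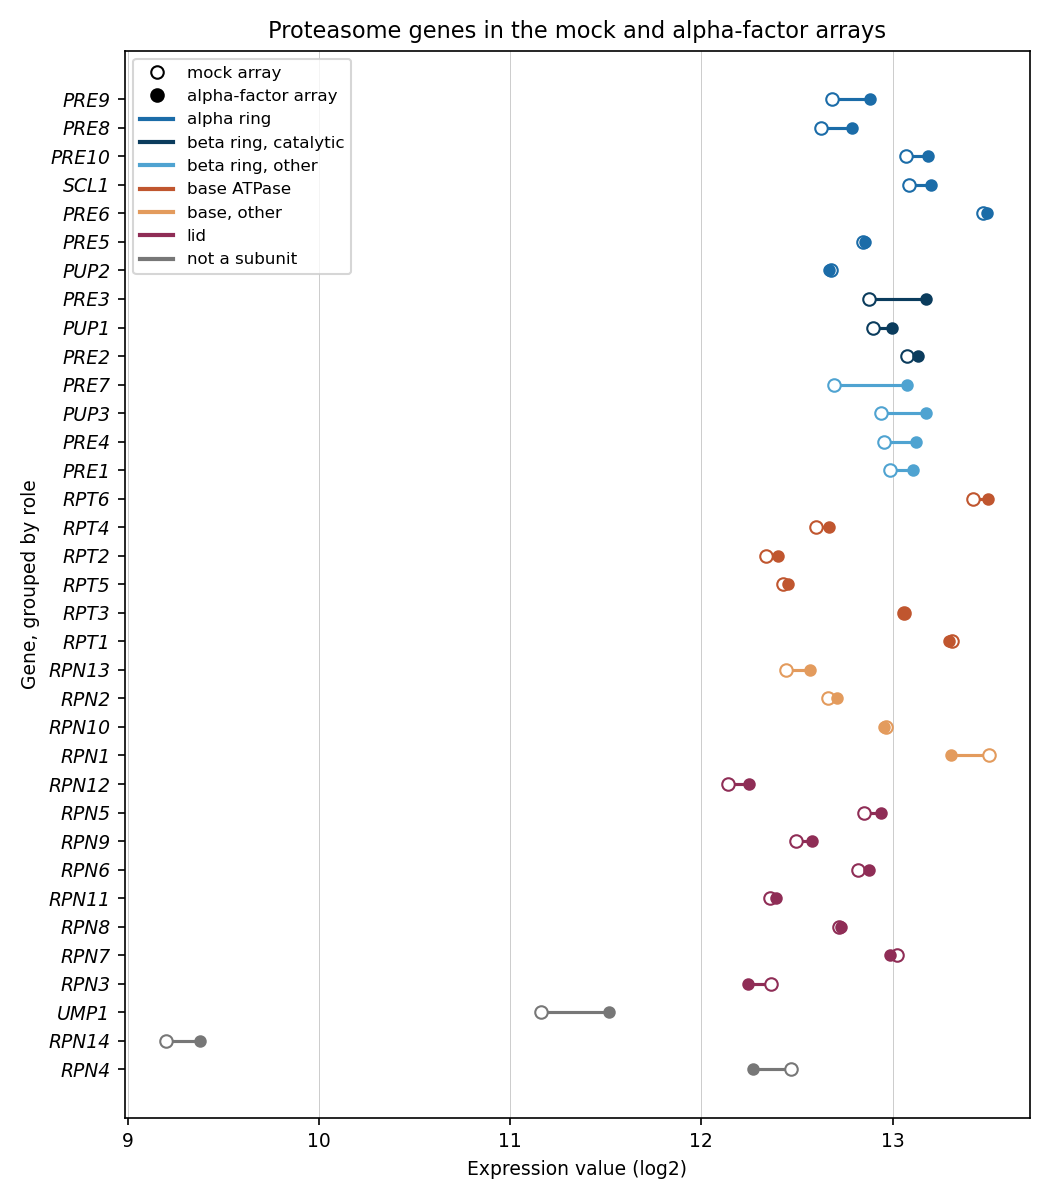
Expression value (log2) of each of the 35 genes in the mock array (open circle) and the alpha-factor array (filled circle), 1 array each, coloured by role. The circles of a gene lie close together, at most 0.38 apart; levels of different genes come from different probe sets and are not compared.

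The differences of the proteasome genes spread little. The interquartile range of all genes above background ran from -0.32 to 0.26, and 32 of the 35 proteasome genes lay inside it, with PRE7, UMP1 and PRE3 above it and none below it. A difference larger in size than that of any proteasome gene was found for 39.1% of all genes above background. The 652 other genes whose mean level lay in the range of the subunits (12.19 to 13.49) had an SD of 0.63, against 0.11 for the 32 subunit genes, and 56 of them (8.59%) differed by 2-fold or more. That level range was set after the values were seen.

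**Figure D2:**
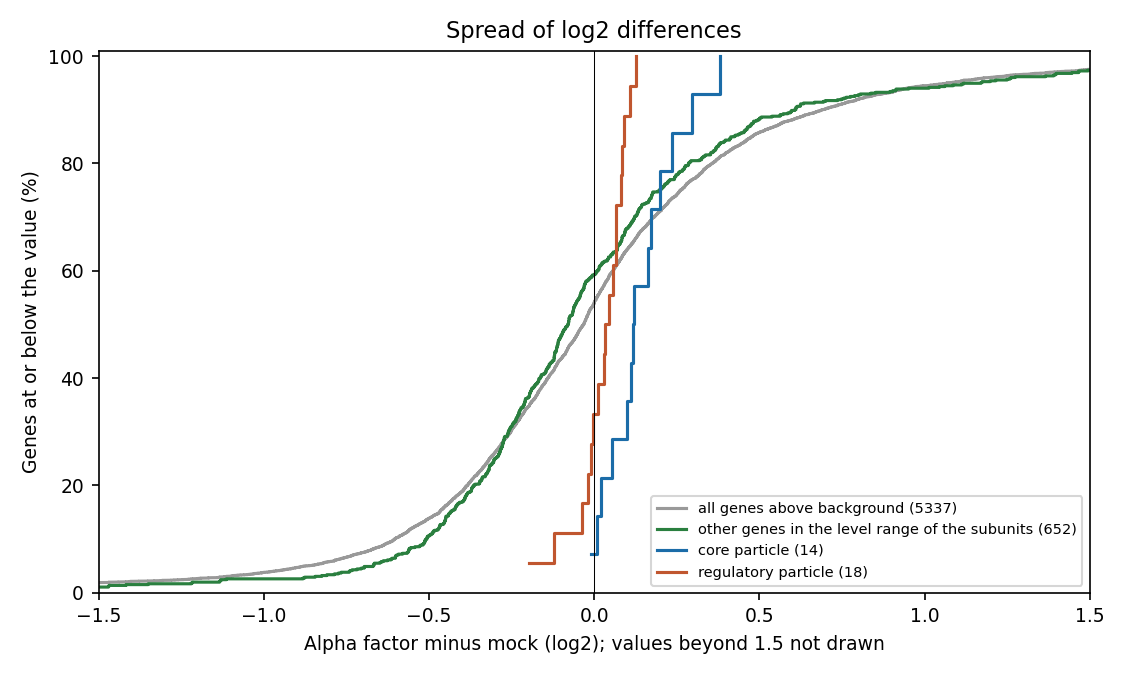
Cumulative share of genes (%) by log2 difference, alpha factor minus mock, for all genes above background, other genes in the level range of the subunits, and the genes of the core and the regulatory particle. The curves of both particles are steep, running from -0.01 to 0.38 for the core and from -0.20 to 0.13 for the regulatory particle, while the other curves spread beyond the drawn range.

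The direction of these small differences was mostly shared. Of the 35 genes, 27 had a ratio above 1, as did 45.8% of all genes above background. This count depends on the scaling of the arrays: with the spiked-in hybridisation controls set to a median of 0, 8 of the 35 had a ratio above 1, beside 33.4% of all genes, and the median log2 difference was -0.068. With either species' median at 0 the count was 31, after quantile normalization 23 and after removal of a loess curve 32. These 2 arrays therefore do not settle the direction of the set as a whole. Differences between its members do not depend on a shift of an array.

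Genes of the alpha rings, which form the gated entrance of the core, were followed by 7 probe sets with a median log2 difference of 0.11. PRE9, the alpha subunit gene whose loss yeast tolerates, was at 12.68 in mock and 12.88 in treated cells. PRE8 was at 12.62 and 12.79. These were the widest gaps of the ring, 1.15-fold and 1.12-fold. PRE10 was at 13.07 and 13.19. SCL1 was at 13.09 and 13.20. Both were 1.08-fold higher in the treated array, less than the median of the spiked-in controls. PRE6 (13.48 and 13.50), PRE5 (12.85 and 12.85) and PUP2 (12.68 and 12.67) had log2 differences between -0.01 and 0.02, PUP2 being the only core gene below its mock value.

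Genes of the beta rings all had a ratio above 1, with a median log2 difference of 0.17 over 7 genes. Among the catalytic subunits, PRE3, which cleaves after acidic residues, was at 12.88 in mock and 13.18 in treated cells, or 1.23-fold higher. PUP1, the trypsin-like subunit, was at 12.90 and 13.00. PRE2, the chymotrypsin-like subunit, was at 13.08 and 13.13. The 3 catalytic genes thus did not share one size of difference, PRE3 being at 0.30 and the others at 0.10 and 0.05. The noncatalytic beta genes were led by PRE7, at 12.69 and 13.07. PUP3 was at 12.94 and 13.18, or 1.18-fold higher. PRE4 (12.95 and 13.12) was 1.13-fold higher and PRE1 (12.99 and 13.11) 1.09-fold higher. Of the 7 beta genes, PRE7, PRE3, PUP3 and PRE4 were above the spiked-in median of 0.13 and the other 3 below it.

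In the regulatory particle, the 6 ATPase genes of the base, RPT1 to RPT6, whose products thread the substrate into the core, were the tightest group, with log2 differences from -0.02 to 0.08 and a median of 0.05. RPT6 was at 13.42 in mock and 13.50 in treated cells, and RPT1, at the other end, was at 13.31 and 13.29. RPT2 (12.34 and 12.40) and RPT4 (12.60 and 12.67) were both 1.05-fold higher. RPT5 was at 12.43 and 12.45 and RPT3 at 13.06 and 13.06. All 6 ATPase genes stayed within 1.06-fold of their mock level.

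Of the other 4 base genes, RPN1 and RPN13 lay outside the range of the ATPase genes and RPN2 and RPN10 inside it. RPN1, a scaffold that binds ubiquitin shuttle proteins, was at 13.50 in mock and 13.31 in treated cells, a log2 difference of -0.20. RPN2, the scaffold of similar build, was at 12.66 and 12.71. The ubiquitin receptor RPN13 was at 12.44 and 12.57, or 1.09-fold higher, and the other receptor, RPN10, was at 12.97 and 12.96. RPN1 and RPN13 were thus the lowest and the highest of the 18 regulatory genes of the name pattern.

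The 8 lid genes had a median log2 difference of 0.04 and ran from -0.12 to 0.11. RPN11, the deubiquitinase of the lid, was at 12.36 in mock and 12.39 in treated cells. RPN8, its partner in the same dimer, was at 12.72 and 12.73. The scaffold subunit genes were led by RPN12 (12.14 and 12.25, or 1.08-fold higher), RPN5 (12.85 and 12.94) and RPN9 (12.49 and 12.58). RPN6 was at 12.82 and 12.88 and RPN7 at 13.02 and 12.99. RPN3, at 12.36 and 12.24, was the lowest of the lid. None of these 8 lid genes was further than 1.09-fold from its mock level.

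Core genes had slightly larger ratios than genes of the regulatory particle. The median log2 difference was 0.119 over 14 core genes and 0.038 over 18 regulatory genes, a gap of 0.081 or 1.06-fold. The ranges overlapped: without SEM1, 6 core genes were above the highest regulatory gene and 5 regulatory genes were below the lowest core gene. Core was the higher in 203 of 252 pairs (203 of 266 with SEM1) of a core with a regulatory gene, a count that a shift of an array leaves as it is. A ratio above 1 was found for 13 core and 12 regulatory genes, which became 6 and 0 with the spiked-in controls at 0. Genes are not replicates and no test between the particles was possible with 1 array per condition. With SEM1 counted among the regulatory genes, an alternative added after its value was seen, their median was 0.045 and the gap 0.074, and no core gene was above SEM1.

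**Figure D3:**
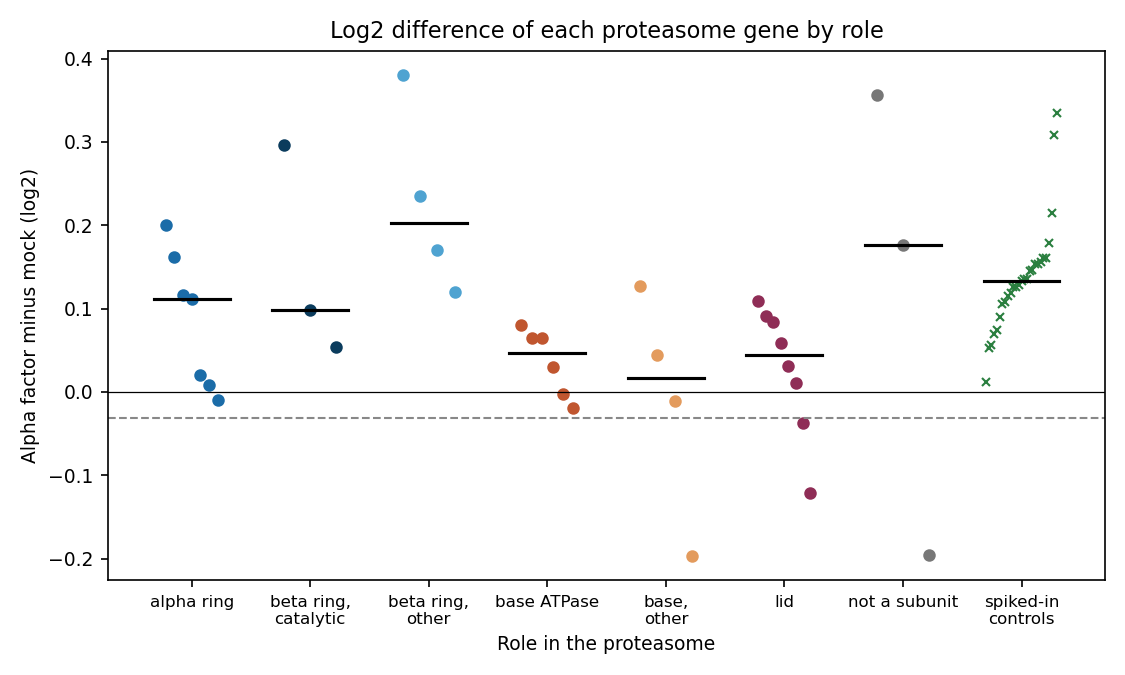
Log2 difference (alpha factor minus mock) of each gene by role, with the 27 probe sets of spiked-in hybridisation controls at the right; bars are medians, the solid line is 0 and the dashed line the median of all genes above background (-0.03). Beta-ring genes all lie above 0, ATPase genes lie close to it, and the controls have a median of 0.13.

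Gene length moved with the difference between the particles. The core genes are 597 to 867 bases long and the regulatory genes have a median length of 1298 bases. Across the 35 genes, the log2 difference and the log2 of the length correlated with r = -0.64 (Pearson) and rho = -0.63 (Spearman), a description over genes that share the same 2 arrays. The 3 regulatory genes no longer than the longest core gene (RPN10, RPN12 and RPN13) had a median of 0.11, and against these the core was higher by 0.0096. By means the gap was wider, with these 3 at 0.075 and the core at 0.14, and RPN10 alone was at -0.01. Within the core r was -0.22 and within the regulatory particle -0.57. Among the other genes in the same level range, the relation was weaker, with an r of -0.02 and a rho of -0.17 over 652 genes. Of these, 104 in the length range of the core had a median of -0.03 and 439 longer ones -0.11, a gap of 0.085. The part of length in the gap between core and regulatory particle was not tested.

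**Figure D4:**
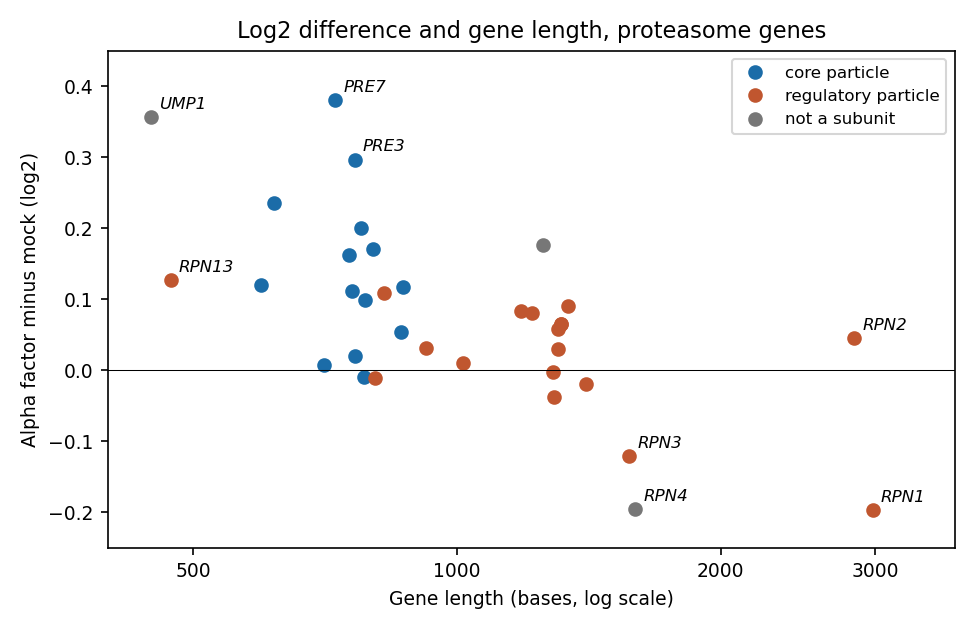
Log2 difference (alpha factor minus mock) against gene length in bases (log scale) for the 35 genes. The shorter genes, among them UMP1 (447 bases), PRE7 (726) and PRE3 (764), hold the higher values, and RPN1 (2982), RPN4 (1596) and RPN3 (1572) the lowest, with RPN2 (2838) at 0.04.

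The 3 genes that are not subunits spanned nearly the whole range of the set. RPN4, the transcription factor of the proteasome genes, was at 12.47 in mock and 12.27 in treated cells, a log2 difference of -0.20 that was -0.12 after removal of a loess curve and -0.33 with the spiked-in controls at 0. RPN4 was thus below its mock level under each scaling tried. UMP1, the chaperone that is sealed inside the assembling core and degraded on completion, was at 11.16 and 11.52, or 1.28-fold higher. RPN14, a chaperone of the base, was at 9.20 and 9.38, or 1.13-fold higher. Of 4 listed activators of RPN4 transcription, none reached 1.5-fold, beside 12.1% of all genes above background higher and 10.7% lower. With 4 genes this count says little. The heat shock factor HSF1 had a log2 difference of 0.49 and PDR3, a drug resistance regulator, one of 0.44. YAP1, the oxidative stress regulator, had one of -0.29.

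Genes that surround the proteasome spread more widely than the subunit genes of the name pattern and less widely than genes in general. Over the 78 genes of 7 lists, SEM1 included, the SD of the log2 difference was 0.48, beside 0.71 over all genes above background. The lists also lay at lower levels, with median mock values from 10.29 to 12.07, beside 12.85 for the 32 subunit genes. The part of level in the spread was not tested. Of the 78, 5 (6.41%) were higher and 1 (1.28%) lower by the 2-fold rule, beside the 5.51% and 3.78% of all genes. Assembly chaperones other than UMP1 and RPN14 had log2 differences from -0.53 to 1.16 over 8 genes, with a median of 0.33, and 1 passed the 2-fold rule as higher and none as lower. TMA17, which helps ATPases pair during base assembly, was at 9.62 in mock and 10.78 in treated cells, or 2.24-fold higher. NAS2, another base chaperone, was at 9.71 and 10.67, or 1.94-fold higher. POC4, one of a dimer of alpha-ring chaperones, was at 10.98 and 10.45, a log2 difference of -0.53. The remaining base chaperones NAS6 and HSM3, named after their values were seen, had log2 differences of 0.48 and 0.44. The base chaperones TMA17, NAS2, NAS6 and HSM3 were above every subunit gene of the name pattern, while the base chaperone RPN14, at 0.18, was not. Of the 4 listed alpha-ring chaperones none was: PBA1 was at 0.05, ADD66 at 0.23, IRC25 at -0.21 and POC4 at -0.53. That grouping was also made after the values were seen. Among all genes above background, 39.1% had a difference larger in size, in either direction, than that of any proteasome gene. The 8 listed chaperones had mock levels from 9.62 to 11.68, below those of all 32 subunit genes (12.14 or more). The part of level in this contrast was not tested.

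SEM1, the small lid subunit whose name falls outside the pattern, was at 11.62 in mock and 12.09 in treated cells. Its log2 difference of 0.47 was larger than that of all 32 subunit genes of the pattern, and its gene, of 270 bases, is shorter than all of them. Of 9 genes of proteasome-associated proteins, SEM1 included, none reached 1.5-fold in either direction. SPG5, needed for proteasome function in stationary phase, had a log2 difference of 0.57, the ubiquitin ligase HUL5 one of 0.51, and CIC1, an adaptor also known from ribosome assembly, one of -0.56. Of 8 shuttle and Cdc48 genes none reached 1.5-fold. Among all genes above background 12.1% were higher and 10.7% lower by this rule. At these shares a list of 8 or 9 genes would hold few such genes, so that none says little. UFD2, a chain-elongating ligase, was at 0.34, and the shuttle genes RAD23 and DSK2 at -0.49 and -0.22.

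Upstream, the list of ubiquitin and its activating and conjugating enzymes held 16 genes, of which 3 passed the 2-fold rule as higher and 1 as lower. Of all genes above background, 5.51% were higher and 3.78% lower by this rule. UBI4, the stress-inducible polyubiquitin gene, was at 11.14 in mock and 12.71 in treated cells, or 2.98-fold higher. The other ubiquitin genes, the ribosomal fusions RPL40A, RPL40B and RPS31, were between -0.10 and 0.03, at levels from 14.16 to 14.77, close to the top of the scale. The conjugating enzyme genes UBC5 (10.13 and 11.30) and UBC8 (9.81 and 10.96, named after its value was seen) were 2.24-fold and 2.22-fold higher. UBC11, a conjugating enzyme gene, was the lower one, at 9.28 and 7.84. UBA1, the single activating enzyme, was at 12.86 and 12.85, as near to equal as the ATPase genes.

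Among 15 ubiquitin ligase genes the 1.5-fold rule took none as higher and 1 as lower, SAN1, a ligase of misfolded nuclear proteins, at 10.92 and 10.28. UBR2, the ligase that marks Rpn4 for degradation, was at 8.68 and 8.31, and HRD1, of the endoplasmic reticulum, had a log2 difference of 0.35. Among 18 deubiquitinase genes it took 4 as higher and none as lower. UBP5 was at 10.18 and 11.39, or 2.31-fold higher, while OTU1 was 1.64-fold and UBP15 1.58-fold higher. The fourth, DOA4, which recycles ubiquitin at the endosome and was named after its value was seen, was 1.52-fold higher. Over all 78 genes of the 7 lists, 10 (12.8%) were higher and 2 (2.56%) lower by 1.5-fold or more, beside the 12.1% and 10.7% of all genes given above. Of the 78, 25 (32.1%) had a difference larger in size than any proteasome gene, beside 39.1% of all genes.

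**Figure D5:**
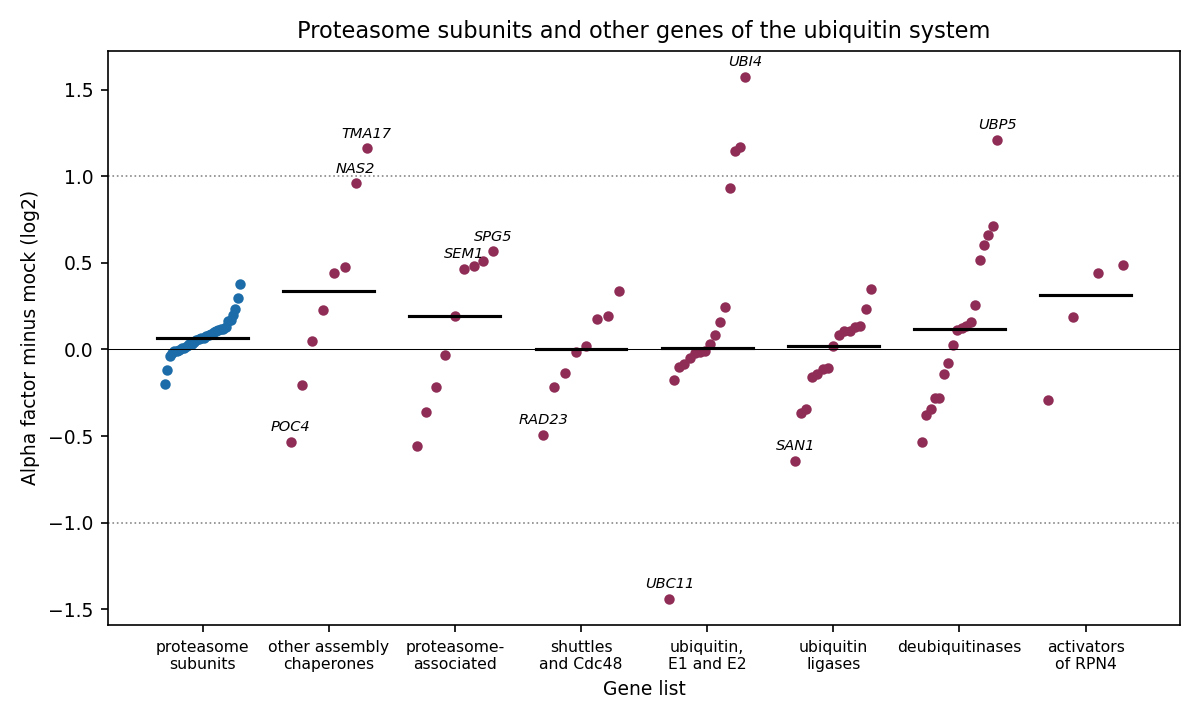
Log2 difference (alpha factor minus mock) of the 32 subunit genes and of the 78 genes of 7 lists of the ubiquitin system; bars are medians and dotted lines mark 2-fold. The subunits of the name pattern form a compact column between -0.20 and 0.38. The lid subunit gene SEM1, at 0.47, is drawn with the proteasome-associated list. UBI4, UBP5, UBC5, UBC8 and TMA17 lie above and UBC11 below the 2-fold lines.

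Other multi-gene sets taken by name gave a scale for these values. The 31 RNA polymerase subunit genes above background (RPA, RPB, RPC or RPO with a number) had a median log2 difference of -0.30 and an SD of 0.17, with 2 ratios above 1. The 55 genes with names of mitochondrial ribosomal proteins (MRP) had a median of -0.16 and an SD of 0.27. They were not checked beyond the name. Among them, 1 passed the 2-fold rule as higher, at 1.18, and none as lower. The 33 autophagy genes (ATG) had a median of 0.54, an SD of 0.60 and 7 members higher and 1 lower by the 2-fold rule (5.51% and 3.78% of all genes). The proteasome set had the smallest SD of these 4, at 0.13, and its median lay between those of the polymerase and the autophagy genes. The sets also differed in level, with median mock values of 8.97 (ATG), 10.98 (MRP), 12.45 (polymerase) and 12.82 (proteasome). The SDs fell in that same order, and the part of level in them was not tested. These are descriptions of 2 arrays, and the differences between sets were not tested.

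By the RefSeq annotation of S. cerevisiae, few proteasome genes are neighbours. In 2 cases a pair of them has a single gene in between. PRE4 and RPN12 had log2 differences of 0.17 and 0.11, and RPT4 and RPN8 had 0.07 and 0.01.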

How the data were processed

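The deposited table held 10928 probe sets in 2 samples. The authors' values, log2 by their range, were made with the affy package, per the submitters' processing notes. Its version, background correction, scaling and probe summary are not given in the sources used. The sorted columns differed by at most 0.092; if a scaling made them so alike, a change in total mRNA would not show. Genes were named through the platform annotation and gene IDs of the RefSeq table; 7244 probe sets had 1 symbol, 1 had several and 3683 had none. Probe sets of 1 gene (47 of 5449 genes) were averaged. Background was the 95th percentile of 1746 S. pombe probe sets in each array. No pseudocount was added. All members were named, and of each list the 3 genes with the largest differences above background plus SEM1, UBI4, UBA1 and UBR2. The members and lists were chosen with earlier results of these data known. Alternatives were other centrings, quantile normalization, a loess curve, the brightest probe set, other background percentiles (90 and 99) and a pseudocount of 32. No promoter or protein sequence was used here. Python 3.11.15, numpy 2.4.6, pandas 2.3.3 and statsmodels 0.14.6 were used.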

Additional observations from a re-analysis of the deposited data

Results flagged for a closer look

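Control probe sets outside the yeast measurements carried signal in 1 array only. The 9 probe sets of the dap control transcript had a median level of 14.02 in mock and 4.16 in treated cells. The 9 probe sets of the lys control transcript were at a median of 4.36 in mock and 12.27 in treated cells. The labels do not say which controls were added to which RNA. Of the 8 probe sets of 25S ribosomal RNA, log2 differences ran from -5.20 to 0.01. The part of these values in the proteasome results was not tested.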

How the results depend on the processing

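With 1 array per condition no left-out replicate and no depth estimate was possible. No paired analysis was possible because each group holds 1 sample. No gene of the set reached 1.5-fold under any of the alternatives. With the spiked-in hybridisation controls at 0, a centring chosen after seeing the data, the median log2 difference reversed to -0.068 for all members, -0.014 for core and -0.095 for regulatory genes, the count of ratios above 1 was 8 in place of 27, and RPN4 was at -0.33; that centring moves all genes by -0.13. Removal of a loess curve put RPN4 at -0.12, the median of all members at 0.14 and that of the regulatory genes at 0.11. The core minus regulatory gap ran from 0.0096 (genes no longer than the longest core gene, chosen after seeing the data) to 0.12 (means in place of medians) over 12 alternatives. Values without a test were called moved when they differed by more than 0.077, the median SD between probe sets of 1 control transcript, and counts when they differed by more than 1.5 times. The limit of 0.077 is larger than the reported median of all members (0.065) and of the regulatory genes (0.038). It is close to the reported gap (0.0805), so that a gap of 0.0096 was not called moved. The label thus says little about how stable these small values are. Of 96 values under alternatives, 90 stayed within these limits and kept their sign, 3 went past them and 3 changed sign. Part of the 90 was fixed in advance. The brightest probe set and the other background percentiles could not move any value, since each member has 1 probe set and lies far above background. A shift of an array could not move the core minus regulatory gap. The planned count of a promoter motif was not run, since no promoter sequence was used here.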
